A study of Canis lupus familiaris with 10 samples.

Results

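The gene for the glucocorticoid receptor, NR3C1, was followed together with 6 genes known to respond to glucocorticoids: FKBP5, TSC22D3, PER1, ZBTB16, KLF15 and LCN2. These 7 genes were picked by name out of the 19856 Ensembl genes counted in the canine libraries, and 13577 genes, all 7 included, had at least 10 reads in at least 1 library. Each of the 7 had been selected on the very contrast described here, because symbols were available only for genes that the study had called differentially expressed. Their differences between Post-ACTH and Pre-ACTH are therefore given as a description, without a test.

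Visceral adipose tissue (VAT) was obtained by laparotomy from 5 adult Beagle dogs ahead of any treatment (Pre-ACTH) and from the same 5, of which 3 were male and 2 female, once they had received tetracosactide for 25 weeks (Post-ACTH). Tetracosactide, a synthetic ACTH analog that stimulates cortisol secretion by the adrenal gland, was delivered by osmotic pumps that were changed every 4 weeks, first at 1.3 to 1.95 µg/kg/day and finally at 6 to 10 µg/kg/day. The dogs are numbered 1 to 5 (dogs 2 and 3 are the females), and each served as its own control. The labels give no untreated dogs followed over the same weeks, so the treatment, the elapsed time and the repeated operation cannot be told apart.

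The glucocorticoid receptor rests in the cytoplasm in a complex with heat shock proteins and immunophilins. Once cortisol is bound, it moves to the nucleus, where it raises transcription of genes with glucocorticoid response elements and lowers that of many inflammatory genes. In many cells prolonged exposure to glucocorticoids lowers the amount of the receptor itself, and the receptor induces proteins that restrain its own action, of which FKBP5 is the best known. In adipose tissue glucocorticoids act on fat storage, lipolysis, adipocyte differentiation and inflammation.

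The libraries held 8728330 to 14867529 counted reads in Pre-ACTH and 12314258 to 14589329 in Post-ACTH, and the smallest was the Pre-ACTH library of dog 3. Levels are given as normalized counts, that is, reads scaled by TMM factors to a library of average size. They depend on transcript length and are compared between samples, never between genes. Fold changes come from a model over all genes with the dog as a block, and the ratio of a single dog is that of its own pair of libraries. Adipose tissue is a mixture of cells, and in such bulk samples fewer cells of a type and less RNA per cell cannot be told apart.

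NR3C1 (ENSCAFG00000006293), the receptor, was lower in Post-ACTH in all 5 dogs. In Pre-ACTH it stood at 3459, 3654, 3991, 4092 and 3759 normalized counts in dogs 1 to 5 (mean 3791 ± 255, SD, n = 5), and in Post-ACTH at 3009, 2387, 2691, 2703 and 2920 (mean 2742 ± 241, SD, n = 5). The groups did not overlap: the highest treated library, that of dog 1, lay below the lowest untreated one, which also belonged to dog 1. The log2 fold change was -0.47 (SE 0.09), a level 27.8% lower.

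The size of this difference varied between dogs. The log2 ratios were -0.20 in dog 1, -0.61 in dog 2, -0.57 in dog 3, -0.60 in dog 4 and -0.36 in dog 5. The 95% exact binomial interval of dog 1 reached from -0.27 to -0.13 and that of dog 5 from -0.43 to -0.30, so neither met the intervals of dogs 2, 3 and 4, which together spanned -0.69 to -0.49. These intervals cover counting error only. They treat reads as independent molecules, which reads are not, so they can be too narrow. With 1 library for each dog and time point, the variation between samplings of the same dog was not measured.

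FKBP5 (ENSCAFG00000001343) encodes an immunophilin co-chaperone that lowers the affinity of the receptor for cortisol and is itself induced by it. It had the largest increase among the 7 genes. Its level was 1258, 1335, 352, 1547 and 1259 normalized counts in Pre-ACTH in dogs 1 to 5 (mean 1150.4 ± 462, SD, n = 5), and 3435, 5836, 4536, 6031 and 5028 in Post-ACTH (mean 4973 ± 1051, SD, n = 5). Even the lowest treated library, that of dog 1, had more than the highest untreated one, that of dog 4.

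The fold change of FKBP5 was 4.64 (log2 2.21, SE 0.29), and 1.49% of the tested genes had a larger change in either direction. By dog, the log2 ratios were 1.45, 2.13, 3.69, 1.96 and 2.00. Dog 3 had the steepest ratio, from 250 reads in Pre-ACTH to 5126 in Post-ACTH, and differed from the other dogs in its starting level, whereas its Post-ACTH level lay within their range. Dog 1 had the smallest ratio and the lowest Post-ACTH level, with a Pre-ACTH level close to those of dogs 2 and 5.

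**Figure D1:**
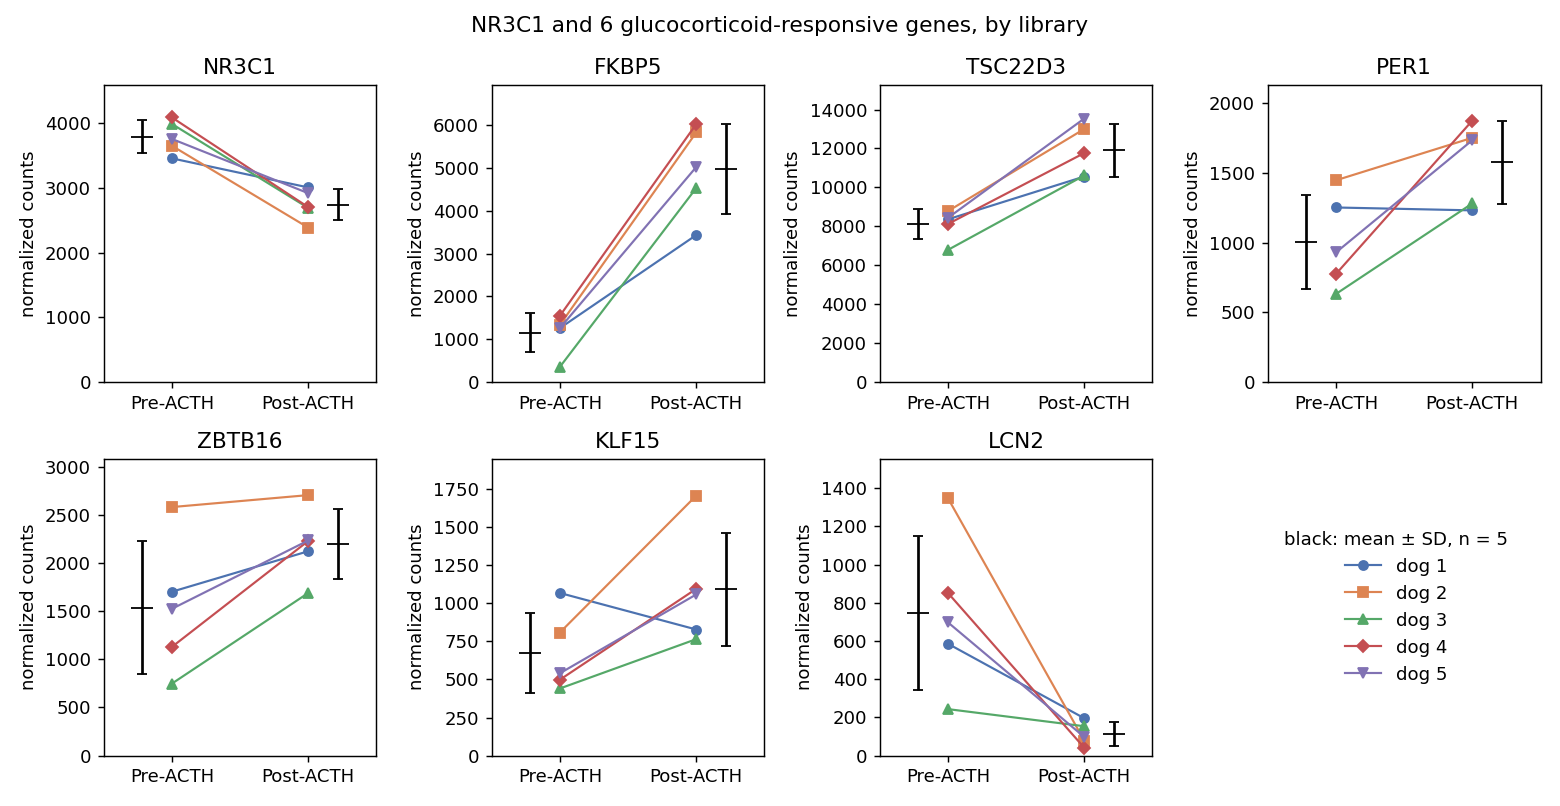
Normalized counts (y axis, from 0) of the 7 genes in Pre-ACTH and Post-ACTH, with 1 coloured line for each of the 5 dogs and black bars for the mean ± SD. NR3C1 and LCN2 go down and FKBP5 and TSC22D3 go up in all 5 dogs without overlap of the groups, while PER1, ZBTB16 and KLF15 overlap.

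TSC22D3 (ENSCAFG00000029920), which encodes the glucocorticoid-induced leucine zipper GILZ, a mediator of anti-inflammatory glucocorticoid effects, was higher in all 5 dogs and had the most even response. Pre-ACTH levels were 8357, 8778, 6785, 8117 and 8432 normalized counts in dogs 1 to 5 (mean 8094 ± 769, SD, n = 5), and Post-ACTH levels 10558, 13003, 10613, 11766 and 13540.0 (mean 11896 ± 1359, SD, n = 5). The groups did not overlap, and dogs 1 and 3 had almost the same treated level. The fold change was 1.47 (log2 0.55, SE 0.09), with log2 ratios of 0.34, 0.57, 0.65, 0.54 and 0.68, again smallest in dog 1.

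PER1 (ENSCAFG00000016984), a repressor within the circadian clock whose gene also carries glucocorticoid response elements, was higher in 4 of 5 dogs. It was at 1251, 1447, 631, 774 and 929 normalized counts in Pre-ACTH (mean 1006 ± 337, SD, n = 5) and at 1231, 1752, 1280.5, 1875 and 1734 in Post-ACTH (mean 1574 ± 296, SD, n = 5). Dogs 1 and 2 already had untreated levels within the treated range, so the groups overlapped. The log2 fold change was 0.69 (SE 0.19). Dogs 3, 4 and 5 had log2 ratios of 1.02, 1.28 and 0.90, dog 2 had 0.28, and dog 1 had -0.02 with an interval from -0.14 to 0.09, so no difference was detectable at this depth in dog 1.

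ZBTB16 (ENSCAFG00000013538) encodes the zinc finger repressor PLZF, which many cell types induce strongly under glucocorticoids. Its Pre-ACTH levels of 1701, 2580.1, 748, 1129 and 1524 normalized counts (mean 1536 ± 690, SD, n = 5) were spread more widely than its Post-ACTH levels of 2122, 2704, 1688, 2229 and 2234 (mean 2195 ± 362, SD, n = 5). Dog 2 had both the highest untreated and the highest treated level, and the groups overlapped, since the untreated levels of dogs 1 and 2 were above the treated level of dog 3. The log2 fold change was 0.61 (SE 0.16). The log2 ratio of dog 2 was 0.07, with an interval from -0.01 to 0.14 that includes 0, while dog 1 had 0.32, dog 5 had 0.55, dog 4 had 0.98 and dog 3 had 1.17.

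KLF15 (ENSCAFG00000003807), a Krüppel-like factor that promotes adipocyte differentiation and amino acid catabolism, was higher in 4 dogs and lower in 1. Pre-ACTH it was at 1067, 808, 441, 498 and 541 normalized counts in dogs 1 to 5 (mean 671 ± 263, SD, n = 5), and Post-ACTH at 828, 1707, 765, 1095 and 1058 (mean 1090.3 ± 373, SD, n = 5). Dog 1 had the highest untreated level of the group and the second lowest treated level, and the groups overlapped. The log2 fold change was 0.73 (SE 0.21). In dog 1 the log2 ratio was -0.37, with an interval from -0.50 to -0.23, whereas dogs 2 to 5 had 1.08, 0.79, 1.14 and 0.97, close to each other.

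LCN2 (ENSCAFG00000020088), the gene of lipocalin 2, an iron-siderophore binding protein of innate immunity made by neutrophils, macrophages and adipocytes, went the other way. It was at 586, 1348, 244, 852 and 698 normalized counts in Pre-ACTH (mean 745 ± 404, SD, n = 5) and at 196, 78.4, 154, 41.0 and 97.6 in Post-ACTH (mean 113 ± 61.5, SD, n = 5). All 5 treated libraries were below all 5 untreated ones. The level was 84.2% lower (log2 fold change -2.67, SE 0.55), and 0.862% of the tested genes had a larger change in either direction.

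Dogs differed more in LCN2 than in any other of the 7 genes. Dogs 2 and 4 had log2 ratios of -4.10 and -4.38, dog 5 had -2.84, dog 1 had -1.58 and dog 3 had -0.66, and the SD of these ratios was 1.60, against 0.85 for FKBP5 and 0.18 for NR3C1. The small ratio of dog 3 went with the lowest untreated level of LCN2, and the treated levels rested on 44 to 182 reads.

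In the test over all 13577 genes (edgeR's quasi-likelihood test, Benjamini-Hochberg adjustment), 268 genes, or 1.97%, passed FDR under 0.01, and of the 7 genes FKBP5 did. At FDR under 0.05, 1509 genes passed (11.1%), among them NR3C1, FKBP5, TSC22D3, ZBTB16 and LCN2. The groups did not overlap for 1228 genes (9.04%) and for 4 of the 7. As the genes were chosen on this contrast, these counts carry no evidence about them.

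**Figure D2:**
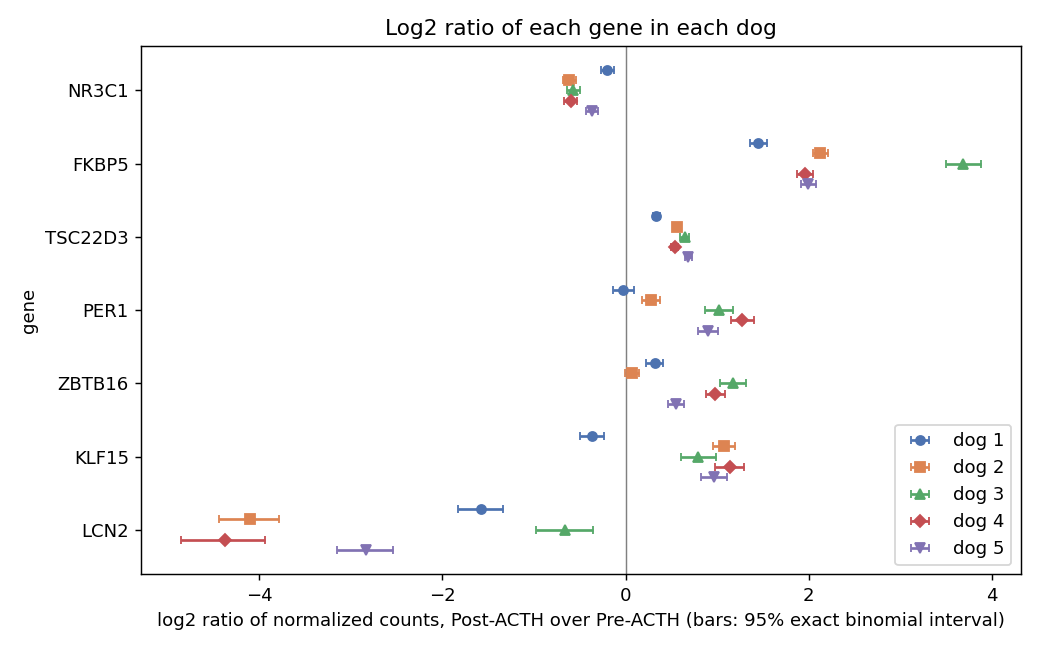
Log2 ratio of normalized counts, Post-ACTH over Pre-ACTH (x axis), for each of the 7 genes (y axis) in each dog, with 95% exact binomial intervals that cover counting error only. Dog 1 lies closest to 0 or beyond it for NR3C1, FKBP5, TSC22D3, PER1 and KLF15, and the 5 dogs are spread most widely for LCN2.

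The response of the 5 increased genes (FKBP5, TSC22D3, PER1, ZBTB16 and KLF15, below called the targets) was set beside the NR3C1 ratio of the same dog. LCN2, which fell, was left out, so means above 0 follow in part from the choice of genes. The mean log2 ratio over the 5 targets was 0.34 in dog 1, 0.82 in dog 2, 1.46 in dog 3, 1.18 in dog 4 and 1.02 in dog 5 (mean 0.97 ± 0.42, SD, n = 5). Dog 1 was last in both measures, with the smallest NR3C1 ratio and the smallest target response. The orders parted at the other end. Dog 2 had the largest NR3C1 difference and was in place 4 of 5 for the targets. Dog 3 was first for the targets and in place 3 for NR3C1. The NR3C1 places of dogs 2, 3 and 4 are not resolved, since their counting intervals overlapped (-0.69 to -0.54, -0.64 to -0.49 and -0.67 to -0.53). With total counts dog 3 was in place 2 for NR3C1. With 5 dogs no correlation was computed.

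FKBP5 weighed heavily in these means, and so they were also taken without it. The mean log2 ratio over the other 4 targets was 0.07 in dog 1, 0.50 in dog 2, 0.91 in dog 3, 0.98 in dog 4 and 0.78 in dog 5. Dogs 3 and 4 changed places, dog 1 stayed last, and dog 2 stayed next to last. In dog 1 the mean near 0 combined higher TSC22D3 and ZBTB16, PER1 without a detectable difference and lower KLF15.

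**Figure D3:**
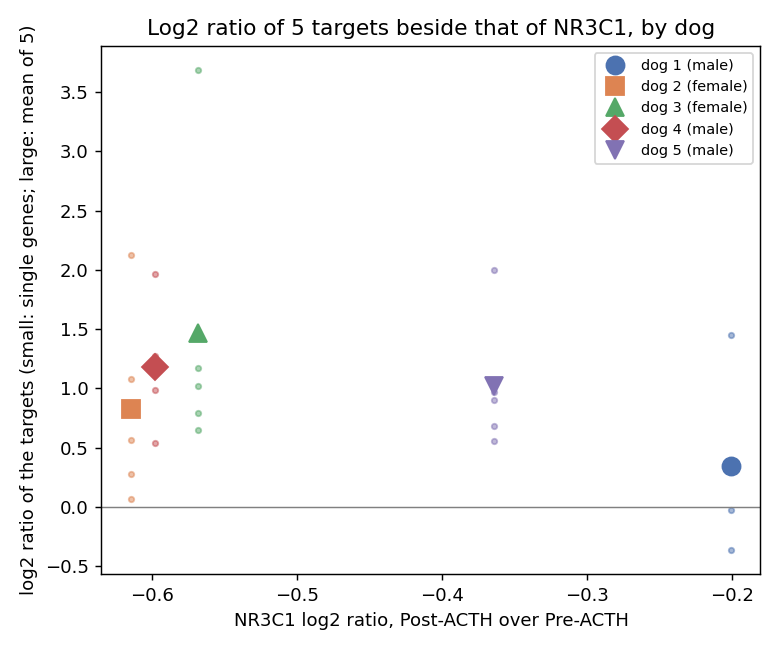
Log2 ratio of the 5 targets (y axis, small points single genes, large symbols their mean) against the log2 ratio of NR3C1 (x axis) for each of the 5 dogs. Dog 1 has the NR3C1 ratio nearest 0 (-0.20) and the lowest target mean (0.34), and dog 2 has the NR3C1 ratio farthest from 0 (-0.61) with a target mean of 0.82.

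Dog 1 had the least change in the direction of the mean for 5 of the 7 genes, a place it took for 27.5% of all 12956 genes that could be ranked. This was seen for 4 of the 5 targets, ZBTB16 being the exception, and for NR3C1, but not for LCN2, whose smallest ratio was that of dog 3. The count was made after the values had been seen. The levels of these genes correlated with each other, so it does not rest on separate observations.

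The reads of a target can also be expressed per NR3C1 read of the same library, which needs no scaling between libraries. For every 100 NR3C1 reads there were 36.4, 36.5, 8.82, 37.8 and 33.5 FKBP5 reads in Pre-ACTH in dogs 1 to 5. The 4 dogs other than dog 3 were thus nearly alike before treatment. In Post-ACTH there were 114, 245, 169, 223 and 172 FKBP5 reads per 100 NR3C1 reads, so that in each treated library FKBP5 reads outnumbered those of NR3C1, with dog 1 the lowest and dog 2 the highest. Because transcript lengths differ, this is a ratio of reads and not of transcripts.

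**Figure D4:**
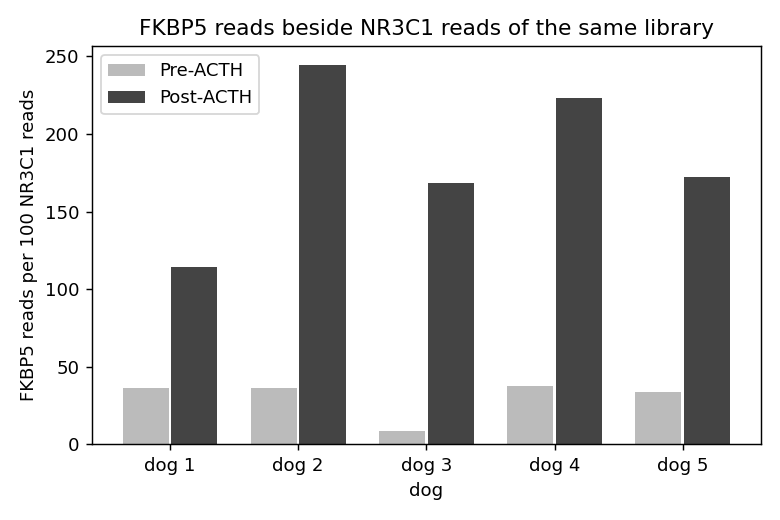
FKBP5 reads per 100 NR3C1 reads of the same library (y axis, from 0) in the 5 dogs (x axis), Pre-ACTH in light and Post-ACTH in dark bars, each bar 1 library. The 5 Pre-ACTH values lie between 8.82 and 37.8 and the 5 Post-ACTH values between 114 and 245.

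KLF15 behaved differently on this scale. There were 30.9, 22.1, 11.0, 12.2 and 14.4 KLF15 reads per 100 NR3C1 reads in Pre-ACTH and 27.5, 71.5, 28.4, 40.5 and 36.2 in Post-ACTH. Dog 1 was the only dog with a lower value after treatment, and its value before treatment was above the Post-ACTH value of dog 3. For LCN2, the values of 16.9, 36.9, 6.10, 20.8 and 18.6 in Pre-ACTH stood against 6.50, 3.29, 5.72, 1.52 and 3.34 in Post-ACTH, and dog 3 had nearly the same value in both. Its normalized level of LCN2 was lower after treatment (log2 ratio -0.66, interval from -0.97 to -0.35), as was that of NR3C1, the denominator (-0.57).

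The spread between dogs differed between the groups. On the log2 scale, the SD of the level went from 0.87 in Pre-ACTH to 0.33 in Post-ACTH for FKBP5, from 0.67 to 0.24 for ZBTB16 and from 0.49 to 0.28 for PER1. It was 0.53 and 0.45 for KLF15 and 0.91 and 0.88 for LCN2. NR3C1 (0.098 and 0.13) and TSC22D3 (0.14 and 0.16) varied little in both groups. A smaller SD in Post-ACTH was thus found for 5 of the 7 genes, and for 54.9% of all genes. For FKBP5 and LCN2 this rested on dog 3: without it, the SDs in Pre-ACTH and Post-ACTH were 0.14 and 0.37 for FKBP5 and 0.52 and 0.93 for LCN2, so the direction turned. PER1 (0.41 and 0.27), ZBTB16 (0.49 and 0.15) and KLF15 (0.51 and 0.43) kept it in this calculation, which was added after the values had been seen.

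Dog 3 stood apart before treatment. Its Pre-ACTH library, the smallest of the 10, had the lowest level of all 5 targets and of LCN2, 6 of the 7 genes, whereas it had the lowest Pre-ACTH level for 22.3% of all 13428 genes that could be ranked. These 6 are not separate observations, since the levels of the targets correlated over the 10 libraries (r = 0.947 for FKBP5 with TSC22D3 and 0.928 for PER1 with ZBTB16). They were also chosen on this contrast, unlike the genes behind the 22.3%. NR3C1 in that library was the second highest of the group. The part of library size in these values was not tested.

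Whether the sexes differed in response was the one comparison that had not been used to choose the genes. No gene of the 13577 passed FDR under 0.01 for an interaction of sex and treatment (0% called, edgeR's quasi-likelihood test). In that test 435 had an unadjusted p under 0.05, fewer than chance alone would give over 13577 genes. DESeq2 called 5 genes, none of them among the 7, with 294 at an unadjusted p under 0.05. FKBP5 had the largest difference of the 7, with a mean log2 ratio of 2.91 in the 2 females and 1.80 in the 3 males. The female minus male difference fitted by the model was 1.08 (SE 0.45, adjusted p = 1 with edgeR). Without dog 3, a female, that difference was 0.31. The other 6 genes had differences between -0.20 for NR3C1 and 0.46 for LCN2 (SE 0.18 and 1.19), each with an adjusted p of 1 with edgeR, and with 2 females such intervals are wide.

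Further genes of the pathway are given from lists of known members, and again only those with a symbol could be read, all of which the study had called on these samples. Their counts are therefore no independent evidence of a direction. The second receptor that binds cortisol, the mineralocorticoid receptor gene NR3C2, was at 507, 707, 673, 766 and 630.1 normalized counts in Pre-ACTH and at 490.2, 343, 409, 380.2 and 444 in Post-ACTH (log2 fold change -0.67, SE 0.15; not past FDR under 0.01). The groups did not overlap. Its log2 ratios of -0.05, -1.04, -0.72, -1.01 and -0.50 in dogs 1 to 5 ordered the dogs as those of NR3C1 did. This order rests in part on near ties, dogs 2 and 4 for NR3C2 and dogs 2, 3 and 4 for NR3C1 (-0.61, -0.57 and -0.60). With total counts dogs 3 and 4 changed places for NR3C1. The share of all genes with this order was not computed.

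Of a list of 13 chaperone and co-chaperone genes, FKBP5 and 3 others could be read. The listed genes HSP90AA1 and HSP90AB1 were not among them, so the receptor complex itself is not described by these 3. The mitochondrial chaperone HSPA9 (log2 fold change 0.37), the small heat shock protein HSPB1 (0.57) and the co-chaperone BAG3 (0.68) did not pass FDR under 0.01. The median of the 3 was 0.57, which carries no evidence about the list, since the study had called all 3 on this contrast. Of 16 coregulators of steroid receptors, 5 could be read, and the acetyltransferase gene KAT2B was the one that passed, with a fall (log2 fold change -0.71, SE 0.09). The corepressor NCOR1 had a log2 fold change of 0.48, the RNA coactivator SRA1 0.61, and the chromatin remodeling subunits SMARCD2 and SMARCA2 0.56 and -0.60.

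Among 45 other genes known to be induced by glucocorticoids in many cell types, 22 could be read. Of these, 17 had a positive and 5 a negative fold change (median log2 fold change 1.15), and 3 rose and 2 fell at FDR under 0.01. Those that rose were GLUL, glutamine synthetase (log2 fold change 1.26, SE 0.19), METTL7A, a methyltransferase-like protein of lipid droplets and endoplasmic reticulum (1.16, SE 0.16), and GPX3, the extracellular glutathione peroxidase (3.99, SE 0.60). AGT, the angiotensin precursor (-2.43, SE 0.20), and STEAP4, a metalloreductase of adipocytes (-2.02, SE 0.22), fell.

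Dog 1 had the lowest median response in this list too. The median log2 ratio of the 22 genes was 0.51 in dog 1 and 1.11, 0.96, 1.04 and 1.07 in dogs 2 to 5, and dog 1 had the least change in the direction of the mean for 12 of the 22, against the 27.5% of all genes given above. For PDK4, the kinase that inhibits pyruvate dehydrogenase, its log2 ratio was 0.00, against 0.37 to 1.02 in the other dogs. DDIT4, an inhibitor of mTORC1, had a log2 ratio of 0.07 in dog 1 and of 0.48 to 2.23 in the others. In contrast, TIMP4, a metalloproteinase inhibitor, and LIPE, hormone-sensitive lipase, had their highest log2 ratios in dog 1 (1.66 and 0.70). In the other lists dog 1 had the least change for 1 of the 3 chaperones, 1 of the 5 coregulators and 1 of the 5 clock genes that could be read. These lists are too short to be told apart from the 27.5% of all genes or from the list of induced genes. These counts and genes were singled out after the values had been seen.

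PER1 was the one clock gene of the 7, and 5 others of 16 could be read. ARNTL, the activator BMAL1, had a log2 fold change of 1.30 (SE 0.25). PER3, a relative of PER1 in the repressor complex, fell (-0.72, SE 0.10) and was the one gene of the 5 that passed FDR under 0.01. The output transcription factors DBP and TEF had -1.01 (SE 0.20) and -0.66 (SE 0.14), and the nuclear receptor NR1D2 had -0.36 (SE 0.07). All 5 had the same sign in all 5 dogs, which PER1 did not. This held for 26.9% of all genes tested, and the 5 could be read because the study had called them on this paired contrast. In dog 1, where PER1 showed no detectable difference, PER3 had a log2 ratio of -0.62, DBP -1.28 and ARNTL 0.66. The hour of sampling is not given in the sources used here, and its part in these values was not tested.

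**Figure D5:**
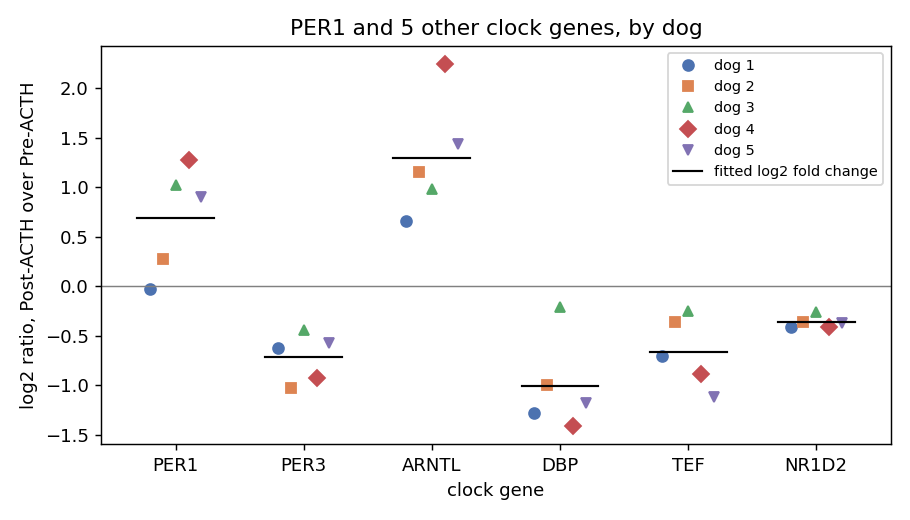
Log2 ratio, Post-ACTH over Pre-ACTH (y axis), of PER1 and 5 other clock genes (x axis) in the 5 dogs, with black lines for the fitted log2 fold change. ARNTL is above 0 and PER3, DBP, TEF and NR1D2 are below 0 in all 5 dogs, whereas PER1 runs from -0.02 in dog 1 to 1.28 in dog 4.

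LCN2, which fell, was read beside genes known to be repressed by glucocorticoids and beside markers of cells that make it. This placing follows its direction here and does not class LCN2 as a repressed gene. Whether glucocorticoids lowered it was not tested. Of 17 repressed inflammatory genes, 3 could be read, of which 2 had positive and 1 a negative fold change. PLAU, urokinase, fell (log2 fold change -1.29, SE 0.15) and was the one that passed FDR under 0.01, and the adhesion molecule VCAM1 had a value of 0.82. Of 12 neutrophil markers 1 could be read, ITGAM (log2 fold change -0.88, SE 0.17, not past FDR under 0.01). It had 147 to 309.8 normalized counts in Pre-ACTH and 89.5 to 203 in Post-ACTH, and 1 gene cannot stand for neutrophils. Of 12 macrophage markers 4 could be read, 2 with higher and 2 with lower values (CSF1R -0.75, CD86 -1.59, C1QB 1.00 and MERTK 0.58, the last also on the list of induced genes, none past FDR under 0.01). Their sum was 2198 to 3245 in Pre-ACTH and 2488 to 3004 in Post-ACTH. This sum joined opposite moves of CSF1R (mean 1287 to 771) and MERTK (mean 1183 to 1723), so it does not describe the number of macrophages. The part of these cells in the LCN2 values was not tested.

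Markers of other cells moved with the groups as well, and their part in the values of NR3C1 and the targets was not tested. All 9 fibroblast and progenitor markers that could be read, of 11, had negative fold changes (5 past FDR under 0.01, median -1.49), and their sum was 17980.5 to 36358 normalized counts in Pre-ACTH and 6327 to 10473 in Post-ACTH. The 3 endothelial markers of 9 had negative fold changes, with none past FDR under 0.01, and a sum of 1795 to 2593 in Pre-ACTH and 533 to 1482 in Post-ACTH. The adipocyte marker LIPE, the 1 of 11 that could be read and also on the list of induced genes, was at 19596 to 25067 and 27688 to 33574, not past FDR under 0.01. With 1 marker the labelled tissue could be checked only to this extent.

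The remaining marker lists could be read only in small part. Of 11 mesothelial markers 2 could be read, both with positive fold changes and none past FDR under 0.01 (sum 212 to 324 in Pre-ACTH and 379 to 746 in Post-ACTH), and of 8 mural cell markers 4, of which 3 had positive fold changes and 1 rose at FDR under 0.01 (2470.4 to 4046 and 4074 to 5739). Of 8 mast cell markers 3 could be read, 1 with a positive and 2 with negative fold changes. Their sum (84.6 to 751 and 809 to 2394) was carried by the former, while CPA3, which fell, and MS4A2 had means of 15.9 and 14.5 normalized counts in Pre-ACTH and of 0.39 and 1.39 in Post-ACTH, with 0 reads in some library. Of 8 skeletal muscle markers 2 could be read (sum 166 to 572 and 621 to 2065), of which CKM rose (log2 fold change 3.58) and carried the sum, while TTN fell (-2.07), and of 11 lymphoid markers 1, ICOS, with 62.6 to 358 and 2.80 to 207.

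Genes whose levels ran most closely alongside those of the 7 were looked up by Pearson's r of log2 levels over the 10 libraries, among the genes with a symbol. All points share the difference between the groups and the size of their libraries, so these values are a description. NR3C1 was most like TMEM117, a transmembrane protein gene (r = 0.971), NR3C2 (0.969) and LRAT, which esterifies retinol (0.967). Among the genes nearest to FKBP5 were the ribosomal protein gene RPS21 (0.963) and the mitochondrial CYTB (0.958). TSC22D3 was nearest to PI3 (0.960), a protease inhibitor, ITIH3 (0.957) and KIF26B (0.957).

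Again among the genes with a symbol only, PER1 and ZBTB16 were on each other's lists. Of these genes ZBTB16 was most like PER1 (r = 0.928), followed by METTL7A (0.922) and EPS15L1 (0.920). ZBTB16 itself was closest to ACKR1, the atypical chemokine receptor of venules (0.938), SLC37A1 (0.929) and PER1. Over all tested genes, 8 were at least as like PER1 as ZBTB16 was, ZBTB16 included. Likewise 6 were at least as like ZBTB16 as PER1 was, PER1 included. For KLF15 the nearest were MAD2L2 (0.928), the procollagen protease BMP1 (0.924) and GOLGA7B (0.916). LCN2 was most like ACPP, an acid phosphatase (0.962), the collagen prolyl hydroxylase subunit P4HA2 (0.960) and the amino acid transporter SLC43A2 (0.953). Among the 7 genes themselves, the r of NR3C1 with the 5 targets lay between -0.893 for TSC22D3 and -0.693 for ZBTB16, and its r with LCN2 was 0.816.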

How the data were processed

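Reads of 10 VAT libraries had been aligned by the authors to CanFam3.1 with STAR and counted per Ensembl gene with featureCounts, and the raw counts were deposited without normalization. Versions and the strand setting are not given in the sources used here, so reads of overlapping antisense genes cannot be told apart. The labels name a stranded mRNA kit, the study's methods another kit with rRNA depletion. All samples were processed together according to these methods. Samples were paired by the animal numbers in the labels. Deviations of paired libraries from their group means correlated with r between 0.077 (dog 4) and 0.41 (dog 2).

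In R 4.3.3, edgeR 4.0.16 (TMM, glmQLFit, glmQLFTest), blocked by dog, was run on every gene that reached 10 reads in any 1 sample, with Benjamini-Hochberg adjustment and FDR under 0.01. SEs follow from the F statistic and the fold change. The interaction of sex and treatment was tested in the same manner. DESeq2 1.42.0 and limma 3.58.1 (voom), other scalings, filters and thresholds and fits without single dogs were alternatives. Scripts were tested on simulated data.

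Symbols came from the study's list of differentially expressed genes (1079 symbols), so chosen on these samples, and other genes carry none here. The 7 genes and the lists (receptors, chaperones, coregulators, induced, repressed and clock genes, cell type markers) were fixed by name from general knowledge with earlier results of these data known. The text names the 7 genes, listed genes and the 3 genes with symbols most like each by Pearson's r. Positions and sequences were not used here, and a few genes that these rules would name are not reported here.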

Additional observations from a re-analysis of the deposited data

Results flagged for a closer look

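Of 34 groups of 5 values examined for a value far from the others, 3 held one whose gap to its nearest neighbour, divided by the range, was above the critical value of 0.71. By chance about 1 group in 20 is picked out in this way. The first was FKBP5 in the Pre-ACTH library of dog 3, with 352 normalized counts (gap over range 0.758), and the second, from the same library, was its 8.82 FKBP5 reads per 100 NR3C1 reads (0.851). The third was the log2 ratio of KLF15 in dog 1, -0.37 (0.773), the one dog in which this gene was lower after treatment.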

How the results depend on the processing

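The 70 alternative log2 fold changes of the 7 genes, over other scalings, DESeq2, a fit without the dog as a block and fits without single dogs, kept their sign, as did each dog's NR3C1 ratio and target mean under total counts or a prior count of 2. Without single dogs the fold changes ranged from -0.54 to -0.43 for NR3C1, 1.89 to 2.41 for FKBP5, 0.52 to 0.61 for TSC22D3, 0.54 to 0.87 for PER1, 0.49 to 0.76 for ZBTB16, 0.62 to 0.99 for KLF15 and -3.16 to -2.28 for LCN2. With total counts, dogs 3 and 4 changed places in the order of NR3C1.

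Counts of calls moved far more. Of all genes 268 were called, against 1180 with DESeq2, 438 without a filter on low counts and 1509 at FDR under 0.05. Without single dogs the count ran from 1 (without dog 2) to 318 (without dog 1), with 12 without dog 3, 23 without dog 5 and 117 without dog 4, fits that hold fewer samples. Of the 7 genes 1 was called, against 7 with DESeq2, 3 without the replicate block, 2 with limma-voom, 2 without the filter and 5 at FDR under 0.05, and without single dogs 0 to 2, with 0 without dog 2, dog 4 or dog 5. The interaction gave 0 calls, and 5 with DESeq2. The female minus male difference of FKBP5 ran from 0.31 (without dog 3) to 1.88. The causes were not tested. Upper-quartile scaling, whose calls were counted after seeing the data, gave 280 calls and 1 of the 7. Depth limits LCN2 in Post-ACTH, at 44 to 182 reads.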
